A study of Homo sapiens with 5 samples.

Results

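The genes described here are the 42 autosomal protein-coding collagen genes, chosen by symbol alone (COL, a number, A and a number) from the GENCODE annotation of the human genome build hg19, out of 19229 autosomal protein-coding genes. Chromatin bound by the histone demethylase PHF8 was sequenced after crosslinking and immunoprecipitation with an anti-PHF8 antibody (ChIP-seq) in cultured SKMEL-147 cells, a long-established melanoma line. The labels name 3 replicates of the PHF8 ChIP, called A, B1 and B2, besides 2 input chromatin libraries, all from the same line, with no guide RNA, treatment or time given for any of them, and they do not state whether the replicates came from separate cultures. The inputs entered only through the fold enrichment and q-value that the authors' peak caller assigned to each peak, so conditions could not be compared. A list of peaks holds no expression values, and the identity of the cells was not checked against markers. The lists of A, B1 and B2 held 21506, 20882 and 20120 peaks with a median of 54, 39 and 40 ChIP fragments at the summit.

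Collagens are secreted matrix proteins built of chains that wind into a helical trimer. Fibrillar collagens form the cables of skin, bone and tendon, network-forming collagens build basement membranes and related sheets, and FACIT collagens sit on the surface of fibrils. Beaded-filament, anchoring-fibril, transmembrane and multiplexin collagens link cells and basement membranes to the surrounding stroma. PHF8 carries a domain that docks on a histone mark of active promoters and a catalytic domain that removes methyl marks linked to silencing, and the study asked which promoters it occupies in melanoma cells.

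A gene was called bound when a listed peak came within 1 kb of any of its annotated transcription start sites (TSSs) in all 3 replicates. Under this rule 11730 autosomal protein-coding genes were bound. The study reported fewer targets under a similar rule, and the reason for the difference was not tested. Only 11 of the 42 collagen genes were bound (26.2%), against 61.0% of all autosomal protein-coding genes. A further 6 had a peak in 1 or 2 replicates, a pattern seen in 2.74% of all genes, and 25 had none in any replicate. Taken singly, A, B1 and B2 gave 15, 12 and 13 collagen genes, where the shares of all genes were 63.2%, 62.0% and 61.7%. The bound genes were COL5A1 and COL27A1 (fibrillar), COL4A1, COL4A2 and COL8A1 (network-forming), COL12A1 and COL19A1 (FACIT), COL6A1 (beaded-filament), COL7A1 (anchoring-fibril), COL13A1 (transmembrane) and COL18A1 (multiplexin). COL4A1 and COL4A2 shared their strongest peak, so the 11 genes corresponded to 10 bound regions.

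The sequences just before 7 starts show the range of base composition at these promoters, and no annotated untranslated or coding base is included in any of them. They are read 5′ to 3′ on the strand of the gene (build GRCh37, the same as hg19), with each CpG dinucleotide in capitals. The first 4 belong to bound genes, and the first of all is the stretch between the divergent starts of COL4A1 and COL4A2.
COL4A1 and COL4A2 (chr13:110959505-110959604, plus strand): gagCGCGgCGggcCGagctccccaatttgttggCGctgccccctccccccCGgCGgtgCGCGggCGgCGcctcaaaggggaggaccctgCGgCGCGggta
COL5A1 (chr9:137533549-137533648, plus strand): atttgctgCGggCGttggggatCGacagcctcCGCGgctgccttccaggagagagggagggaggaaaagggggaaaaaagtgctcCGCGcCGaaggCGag
COL13A1 (chr10:71561562-71561635, plus strand): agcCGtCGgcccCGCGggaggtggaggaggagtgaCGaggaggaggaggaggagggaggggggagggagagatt
COL27A1 (chr9:116917717-116917816, plus strand): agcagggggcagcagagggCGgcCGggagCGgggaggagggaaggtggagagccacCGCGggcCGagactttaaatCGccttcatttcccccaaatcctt

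COL23A1 had no peak in any replicate although its start is rich in CpG. The COL23A1 stretch held 8 CpG in 100 bases. Stretches of the same length at bound genes held 14 (COL4A1 and COL4A2), 9 (COL5A1) and 7 (COL27A1).
COL23A1 (chr5:178017395-178017494, minus strand): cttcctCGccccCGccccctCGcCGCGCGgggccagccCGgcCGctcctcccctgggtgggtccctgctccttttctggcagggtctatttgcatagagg

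The last pair belongs to genes with no peak and few or no CpG. COL1A2 and COL10A1 have the core TATA box letters (tataaa) close to the start.
COL1A2 (chr7:94024107-94024206, plus strand): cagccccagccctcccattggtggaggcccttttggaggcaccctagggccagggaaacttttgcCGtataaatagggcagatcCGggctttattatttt
COL10A1 (chr6:116447297-116447395, minus strand): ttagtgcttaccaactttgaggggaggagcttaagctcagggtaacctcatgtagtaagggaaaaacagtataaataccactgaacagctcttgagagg

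Among fibrillar collagens, 2 of 11 genes were bound. COL5A1 (ENSG00000130635, chromosome 9) encodes a chain of type V collagen, which regulates fibril diameter. The strongest promoter peak of COL5A1 had fold enrichments over the local background of 19.5, 13.0 and 8.41 in A, B1 and B2. Its summit lay 351 bp upstream of the TSS in A and 353 bp upstream in B2, but 148 bp downstream in B1. B1 and B2 each listed separate peaks before and after the start, whereas the main peak in A was 900 bp wide (137533122 to 137534021) and covered both positions. COL27A1 (ENSG00000196739, chromosome 9), a collagen of cartilage, had weaker peaks of 11.1, 5.90 and 6.59 in A, B1 and B2, with summits 74 to 123 bp downstream of its TSS in a UTR.

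The remaining fibrillar genes were not bound. COL1A1, which encodes the main chain of the most abundant collagen, had a narrow peak in A (48277282 to 48277443 of chromosome 17) with a fold enrichment of 6.23 and another in B1 (48277444 to 48277611) with 3.38. The summits rested on 15 and 11 ChIP fragments and lay 1613 and 1472 bp downstream of the canonical TSS (the start of the reference transcript), but 173 and 32 bp from the start of a shorter annotated COL1A1 transcript. The lncRNA gene ENSG00000249406 has a start 142 bp from the summit in A. In B2 the nearest summit was 8702 bp from any COL1A1 TSS. COL1A2, COL2A1, COL3A1, COL5A3, COL11A1 and COL24A1 had no promoter peak in any replicate. COL5A2 was listed in B2 alone with a fold enrichment of 3.94, and COL11A2 in A alone with 8.78, at 709 bp upstream of its nearest TSS. In B1 and B2 the nearest summits to COL11A2 were 5728 and 5737 bp away.

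**Figure D1:**
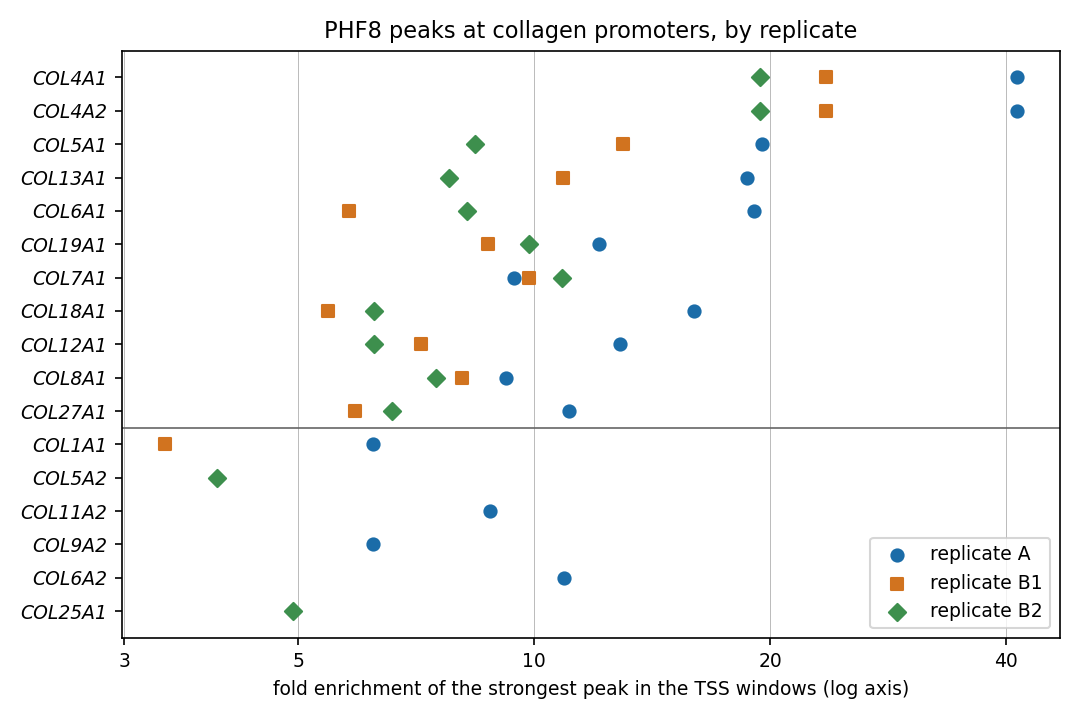
Fold enrichment of the strongest peak within 1 kb of a TSS (horizontal log axis) for each collagen gene with a peak in any replicate, with 1 symbol per replicate. Genes above the line had a peak in all 3 replicates, and the shared COL4A1 and COL4A2 peak (19.4 to 41.3) stands to the right of the other genes in each replicate.

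Network-forming collagens held 3 bound genes of 7. COL4A1 (ENSG00000187498) and COL4A2 (ENSG00000134871) encode the ubiquitous chains of type IV collagen, the scaffold of basement membranes, and their canonical starts are 127 bp apart on opposite strands of chromosome 13. The peak over this shared promoter (110959054 to 110960271 in A) reached fold enrichments of 41.3, 23.5 and 19.4 in A, B1 and B2, with 105, 68 and 58 fragments at the summit. It was the strongest collagen peak in every replicate. The summits lay 88 to 98 bp downstream of the canonical COL4A2 start, in a UTR of COL4A2, and 215 to 225 bp upstream of the COL4A1 start. Thus 10 of the 11 bound genes had their strongest summit nearest to a TSS of their own in all 3 replicates, against 73.8% of all bound genes, and COL4A1 was the exception because COL4A2 starts were nearer.

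The other type IV pair on an autosome showed no peak. COL4A3 and COL4A4, whose chains belong to the specialized basement membranes of kidney, ear and lung, also start head to head, 419 bp apart on chromosome 2. Neither had a promoter peak in any replicate, and the nearest summit to a COL4A3 start was 16121 bp away in A. COL8A1 (ENSG00000144810, chromosome 3), which encodes a chain of the short-chain network collagen of vessel wall and cornea, was bound with 9.20, 8.09 and 7.49 in A, B1 and B2. Its partner COL8A2 had no peak, with the nearest summits 11234 to 11263 bp from its starts. COL10A1, the collagen of hypertrophic cartilage, had none either.

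Among FACIT collagens, 2 of 10 genes were bound. COL12A1 (ENSG00000111799, chromosome 6) had fold enrichments of 12.9, 7.16 and 6.24 in A, B1 and B2, with the summit in a UTR 145 and 116 bp downstream of the canonical TSS in A and B1 and in an intron 388 bp downstream in B2. COL19A1 (ENSG00000082293, chromosome 6) had 12.1, 8.73 and 9.86. Its summits lay 783 to 921 bp downstream of the canonical TSS but at most 77 bp from the start of another COL19A1 transcript. The neighboring gene LMBRD1, which acts in lysosomal cobalamin export, starts 103 to 241 bp from the same summits, so binding at COL19A1 and at LMBRD1 cannot be told apart. COL9A2 was listed in A alone (6.23). COL9A1, COL9A3, COL14A1, COL16A1, COL20A1, COL21A1 and COL22A1 had no promoter peak.

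Beaded-filament collagens contributed 1 bound gene of 5. COL6A1 (ENSG00000142156, chromosome 21) encodes a chain of type VI collagen, which forms microfibrils around cells. The strongest COL6A1 peak had fold enrichments of 19.1, 5.80 and 8.21 in A, B1 and B2, with an SD of 7.08 between the 3 replicates. Each replicate listed a pair of narrow peaks that flanked the start, with the upstream summit 334 to 386 bp before the TSS and the downstream summit 107 to 142 bp after it, in a coding exon. COL6A2, whose chain assembles with that of COL6A1, starts 116 kb farther along the chromosome and had a peak in A alone, with a fold enrichment of 10.9 and 27 fragments. COL6A3, which encodes the remaining chain of the classical trimer, and COL6A5 and COL6A6 had none.

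COL7A1 (ENSG00000114270, chromosome 3), which encodes the anchoring fibrils that fasten epidermis to dermis, was the only bound gene whose fold enrichment was lowest in A (9.43), with 9.85 in B1 and 10.9 in B2. Fold enrichment averaged 10.0 ± 0.732 (SD, n = 3), but its scale differed between the lists. Ranked among all bound genes of the replicate, the strongest COL7A1 peak stood at the 3.36, 12.5 and 17.3 percentile in A, B1 and B2. The summit lay 657 bp downstream of the canonical TSS in A, in an intron, and 160 and 130 bp downstream in B1 and B2, in a UTR. B2 also listed a second peak 640 bp downstream, with 40 fragments against 39 at its main summit.

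COL13A1 (ENSG00000197467, chromosome 10), a membrane-bound collagen of cell adhesions, was bound with 18.7, 10.9 and 7.78 in A, B1 and B2. It has 34 annotated TSSs, the most of any collagen gene. A and B1 each listed 3 separate peaks across its promoter and B2 1 peak of 1817 bp (71561192 to 71563008), and the main summit was 137 to 148 bp downstream of the canonical TSS, in a UTR, in every replicate. COL25A1 was listed in B2 alone (4.93), 461 bp upstream of its nearest TSS and 178 bp from the start of its divergent transcript COL25A1-DT. COL17A1 and COL23A1 had no promoter peak.

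COL18A1 (ENSG00000182871, chromosome 21), a basement membrane multiplexin whose terminal fragment is endostatin, was bound with 16.0, 5.46 and 6.24 in A, B1 and B2. Its summits fell within 2 bp of each other, 97 to 99 bp downstream of the TSS in an intron, and the lncRNA gene ENSG00000273796 starts 319 to 321 bp from them. COL15A1, the other multiplexin, had no peak, and neither had COL26A1 or COL28A1.

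**Figure D2:**
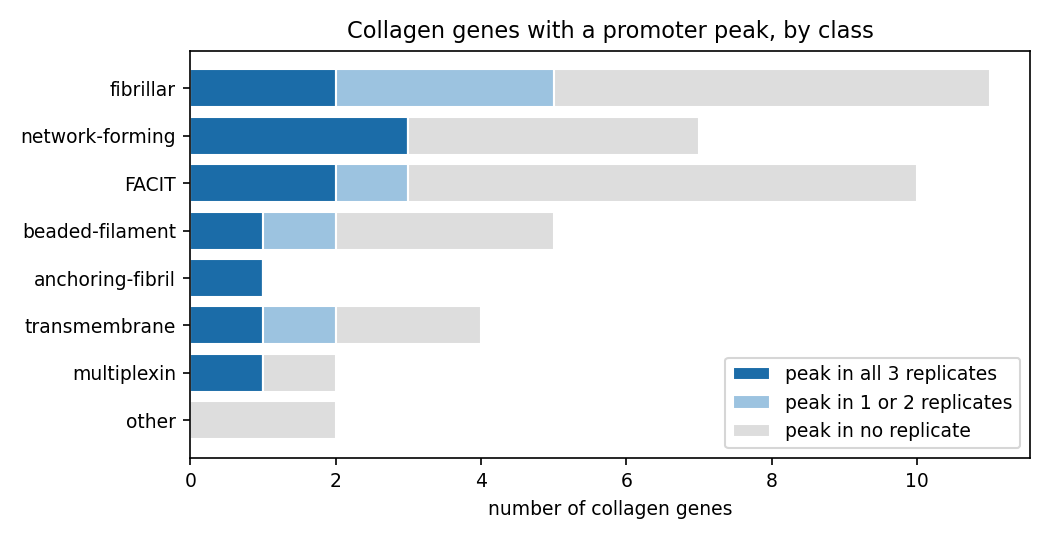
Number of collagen genes (horizontal axis) in each structural class with a promoter peak in all 3 replicates, in 1 or 2, or in none. Network-forming collagens had 3 bound genes of 7, fibrillar collagens 2 of 11 and FACIT collagens 2 of 10.

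Among collagen types with several autosomal chains, types I, IX and XI had no bound chain. Both ubiquitous type IV chains were bound, and the other autosomal type IV chains, COL4A3 and COL4A4, were not. In types V, VI and VIII, COL5A1, COL6A1 and COL8A1 were bound. COL5A2 and COL6A2 were each listed in 1 replicate, and COL5A3, COL6A3, COL6A5, COL6A6 and COL8A2 in none. These are counts of genes in 1 cell line, and the differences between chains were not tested.

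The bound collagen promoters were weak for bound promoters. The strongest peak of each gene was ranked within its replicate among the 11730 bound genes, because fold enrichment differed in scale between lists. The median percentile of the 11 collagen genes was 11.4, 9.39 and 9.14 in A, B1 and B2, where the median over all bound genes is 50.0 by construction. Median fold enrichment was 16.0, 8.73 and 8.21 for collagen genes and 33.9, 19.7 and 18.7 for all bound genes. Of the 11 collagen genes, 9 had a mean percentile under 25, a range that held 2708 of the 11730 bound genes. Median width was 714, 658 and 564 bp, against 833, 735 and 686 bp. At a fold enrichment above 10 in all 3 replicates, 2 collagen genes were left (COL4A1 and COL4A2), compared with 50.8% of all genes. Fewer alleles or cells carrying PHF8 and less PHF8 on each cannot be told apart in such data.

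COL4A1 and COL4A2 stood apart, with a mean percentile of 62.6 ± 8.01 (SD, n = 3) and a lowest value of 53.5 in any replicate. The highest value of any other bound collagen gene was 23.2. Below them came COL5A1 (mean percentile 16.6 ± 6.84), COL13A1 (13.1 ± 4.34), COL7A1 (11.1 ± 7.09), COL19A1 (9.82 ± 3.98) and COL6A1 (9.33 ± 6.77). COL8A1 (6.11 ± 2.63), COL18A1 (5.85 ± 4.88), COL12A1 (5.58 ± 1.45) and COL27A1 (4.30 ± 1.16) were lowest. Neighbors in this order differed by less than the larger of their SDs, with the exception of the step from COL4A1 and COL4A2 to COL5A1.

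Fold enrichment is taken over a local background, which was high at COL5A1. In A its summit carried 97 fragments over an expected 4.02, whereas the COL4A1 and COL4A2 summit carried 105 over an expected 1.57. Ranked by summit fragments instead of fold enrichment, COL5A1 in A moved from the 17.0 to the 48.4 percentile. In B1 and B2 the corresponding values were 27.0 and 22.1 by fragments. COL4A1 and COL4A2 stood at 55.4, 53.8 and 42.2 by fragments in A, B1 and B2, so their distance from COL5A1 was much smaller on this scale in A. The lists hold no summit with fewer than 8 fragments in A and B1 or 10 in B2, so binding below that level at the unbound collagen genes was not detectable at this depth. Whether duplicate reads were removed before peak calling is not given in the sources used here, so fragments may not all be independent molecules.

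**Figure D3:**
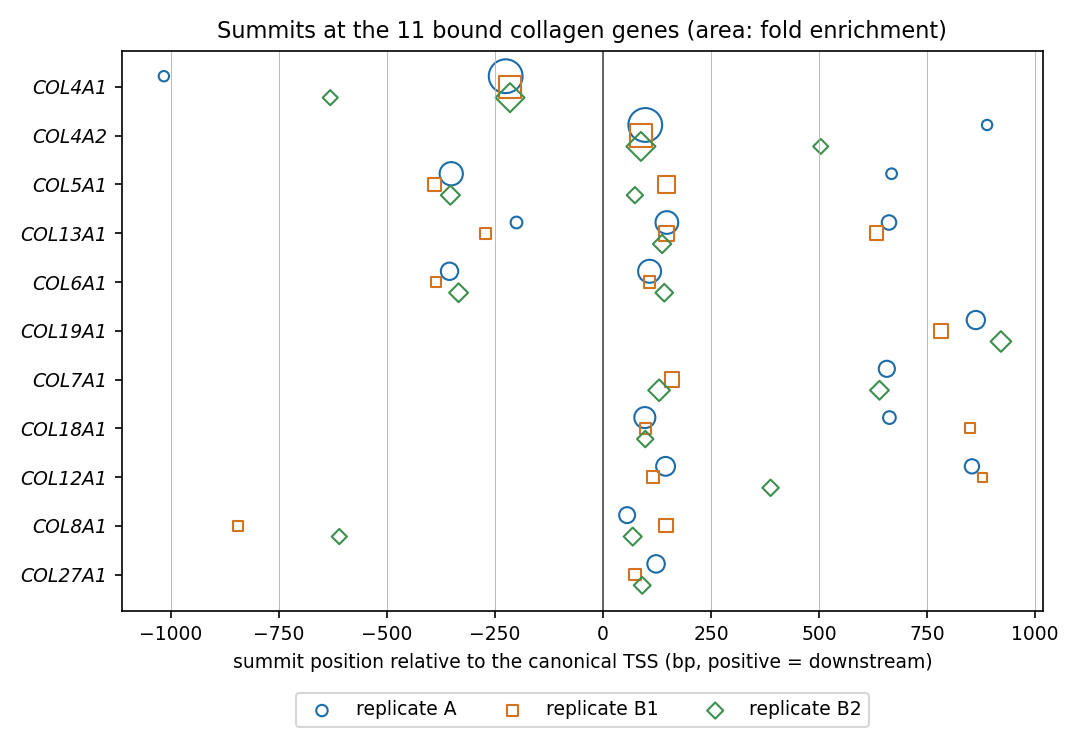
Position of every peak summit in the TSS windows of the 11 bound collagen genes, in bp from the canonical TSS with downstream positive (horizontal axis), by replicate. Symbol area follows fold enrichment. Most of the larger symbols lie just downstream of the start. At COL4A1 they lie 215 to 225 bp upstream, and the larger COL5A1 symbol of A (19.5) lies 351 bp upstream. Upstream peaks also occur at COL5A1 in B1 and B2, and at COL6A1, COL8A1 and COL13A1. Distant downstream positions include those of COL19A1 (783 to 921 bp) and, among others, COL7A1 and COL12A1.

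The strongest summit lay downstream of the canonical TSS in all 3 replicates at 8 of the 11 bound collagen genes, against 61.8% of all bound genes. COL4A1 was upstream throughout, and the strongest summits of COL5A1 and COL6A1 changed side between replicates. At COL6A1 the upstream peak had fold enrichments of 10.9, 4.77 and 8.21 in the 3 replicates and the downstream peak 19.1, 5.80 and 7.23. In at least 1 replicate, 9 of the 11 genes had 2 or more peaks in their windows, against 62.6% of all bound genes. Using the 5′ end of the gene record as the only TSS also gave 11 collagen genes, although the share of all genes was then 54.8%. Collagen genes had a median of 7.5 annotated TSSs, against 5 over all genes.

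Most protein-coding promoters lie in CpG islands, and base composition was therefore compared. The canonical start of a gene was called CpG-island-like when the surrounding 250 bp on either side had at least 50% GC and a CpG ratio (CpG count over the count expected from its C and G) of 0.6 or more. Of the 42 collagen starts, 24 (57.1%) met this, against 67.7% of all genes. Among these 24, 8 were bound (33.3%), whereas 81.5% of all genes with such a start were. Of the other 18, 3 were bound (16.7%), close to the 18.1% of all genes without such a start. Collagen genes thus had both fewer island-like starts than all genes and a lower bound share among those starts.

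The 16 island-like starts that were not bound belonged to COL2A1, COL5A3, COL24A1, COL4A3, COL4A4, COL8A2, COL9A2, COL9A3, COL14A1, COL6A2, COL6A5, COL6A6, COL23A1, COL25A1, COL15A1 and COL26A1. COL15A1 and COL25A1 had CpG ratios of 1.03 and 1.04, the highest of all collagen starts. The bound genes outside the class were COL8A1 (ratio 0.598) and COL19A1 (0.596), both just under the limit, and COL6A1 (0.520). Median GC was 66.9% at bound and 64.5% at unbound collagen starts. Over all genes the corresponding medians were 67.9% and 57.3%, so the unbound collagen starts were richer in GC than unbound genes at large. The median CpG ratio was 0.716 and 0.640 at bound and unbound collagen starts, against 0.850 and 0.347 over all genes. The poorest starts were those of COL17A1 (GC 37.9%, ratio 0.0566) and COL28A1 (36.9%, 0.0595), neither of which had a peak.

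**Figure D4:**
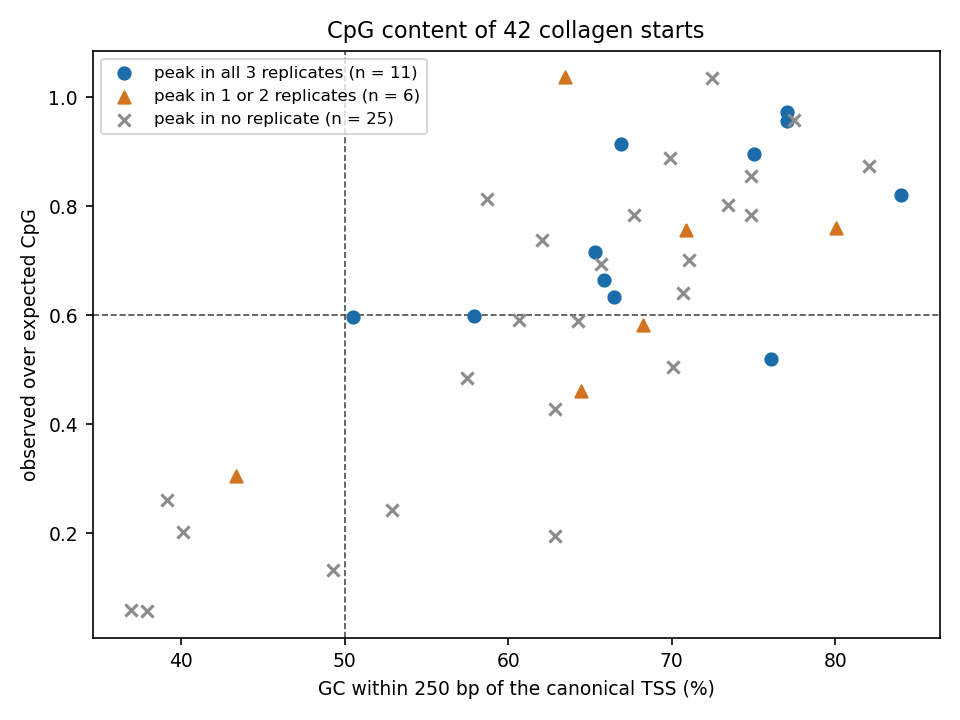
GC content (horizontal axis, percent) and CpG ratio, observed over expected (vertical axis) within 250 bp of the canonical TSS of the 42 collagen genes, with dashed lines at the island-like limits. Bound genes (11), genes with a peak in 1 or 2 replicates (6) and genes with none (25) overlap in the upper right quadrant, and no bound gene lies below a CpG ratio of 0.520.

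Short sequence elements were counted on both strands in the 250 bases before and 50 bases after each canonical start. The core of the TATA box, TATAAA, occurred at 2 of 11 bound (COL7A1 and COL13A1) and 6 of 31 unbound collagen genes, the latter including COL1A1, COL1A2 and COL10A1, and at 9.83% of all genes (4.61% of bound and 18.0% of unbound ones). The core of the CCAAT box, CCAAT, occurred at 2 bound genes (the COL4A1 and COL4A2 pair) and 11 unbound ones, against 35.7% of all genes (36.7% of bound and 34.1% of unbound ones). The windows of that pair overlap, so an element between the starts, such as the CCAAT in the stretch shown above, counted for both genes. The core of the GC box, GGGCGG, which is a binding sequence of the Sp family, occurred at 9 bound and 18 unbound collagen genes, against 61.3% of all genes (75.9% of bound and 38.5% of unbound ones). The E-box CACGTG was found at 0 collagen genes and 8.65% of all genes. None of these counts says whether a factor binds there.

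Away from TSS windows, 11 further peaks lay inside 5 collagen genes, all of them in introns. Peaks were counted in each replicate separately, so a site shared by replicates counts more than once. Over all autosomal protein-coding genes, 10.1% had such a peak in at least 1 replicate, so the 5 of 42 collagen genes were close to that share, although the median collagen gene record is 133 kb long against 27.6 kb over all genes. In all 3 replicates, 0 collagen genes and 6.01% of all genes had one. At COL23A1 a peak deep in the gene (177739460 to 177739981 of chromosome 5 in A, fold enrichment 7.74) was listed in A and, as a pair, in B1, about 278 kb downstream of its canonical start. COL13A1 had a similar intronic site about 65 kb downstream in A (9.74) and B1 (4.61). COL5A2 had one in A (8.96) and B1 (4.77), inside the gene record but 24548 and 24610 bp upstream of the canonical start. COL27A1 had a weak peak just outside its window in B1 and B2 (3.63 and 3.95), and COL8A1 one in A (4.35). For the 25 genes with no promoter peak, the nearest summit in any replicate was 10466 bp (COL16A1) to 1249509 bp (COL22A1) from a TSS, with a median of 36073 bp.

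Proteins that modify, fold, export, trim, cross-link, bind and degrade collagen were counted in the same way. Of 59 such genes, 41 were bound (69.5%), against 61.0% of all genes and 26.2% of the collagen genes. The classes differed in bound share and also in type of start. Every chain-modification gene had an island-like start, as did all folding and export genes except FKBP10 and MIA2. Among degradation genes only MMP2 had one. Over all genes, 81.5% of those with an island-like start were bound and 18.1% of the others. The 61.0% is therefore not matched to the starts of each class, and whether classes differed beyond start type was not tested. Of 15 genes for chain modification, 14 were bound with a median mean percentile of 48.7. P4HB, a subunit of prolyl hydroxylase, was the strongest at a mean percentile of 94.8 ± 0.360 (SD, n = 3) and P3H2 the weakest at 0.338 ± 0.460, and P4HA3 was not bound. All 10 genes for folding and export were bound, with a median of 66.6, from KLHL12, a ubiquitin ligase adaptor of collagen export, at 92.3 ± 1.83 to FKBP14, a folding factor, at 6.73 ± 1.48. P3H4 and FKBP10, from these classes, are neighbors with a shared peak. Their strongest summit was not nearest to an own TSS in at least 1 replicate. The same held, over all the lists, at P3H1, P3H3, SEC23A, PCOLCE, LOXL3, ITGA1 and ITGB1.

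Of 10 propeptide-processing genes, 4 were bound, from BMP1, the main procollagen C-proteinase, at a mean percentile of 13.3 ± 6.49 to PCOLCE, its enhancer, at 5.25 ± 1.65. TLL1, TLL2, ADAMTS2, ADAMTS14, MEP1A and MEP1B were not, and the last pair had no island-like start. Of 6 cross-linking genes, 5 were bound, from the lysyl oxidase LOXL2 at 18.7 ± 8.02 to LOXL1 at 0.880 ± 0.571, and LOXL4 was listed in 2 replicates only. Of 10 receptor genes, 6 were bound, with the integrin gene ITGA2 at 68.7 ± 11.8 and the discoidin receptor gene DDR2 at 6.52 ± 0.556 at the ends, and ITGA10, ITGA11, GP6 and LAIR1 were not, of which 3 (all but ITGA11) had no island-like start. Of 8 degradation genes, the metalloproteinase genes MMP14 (5.31 ± 1.34) and MMP2 (2.90 ± 1.04) were bound, and MMP1, MMP8, MMP9, MMP13, CTSK and FAP, none with an island-like start, were not.

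**Figure D5:**
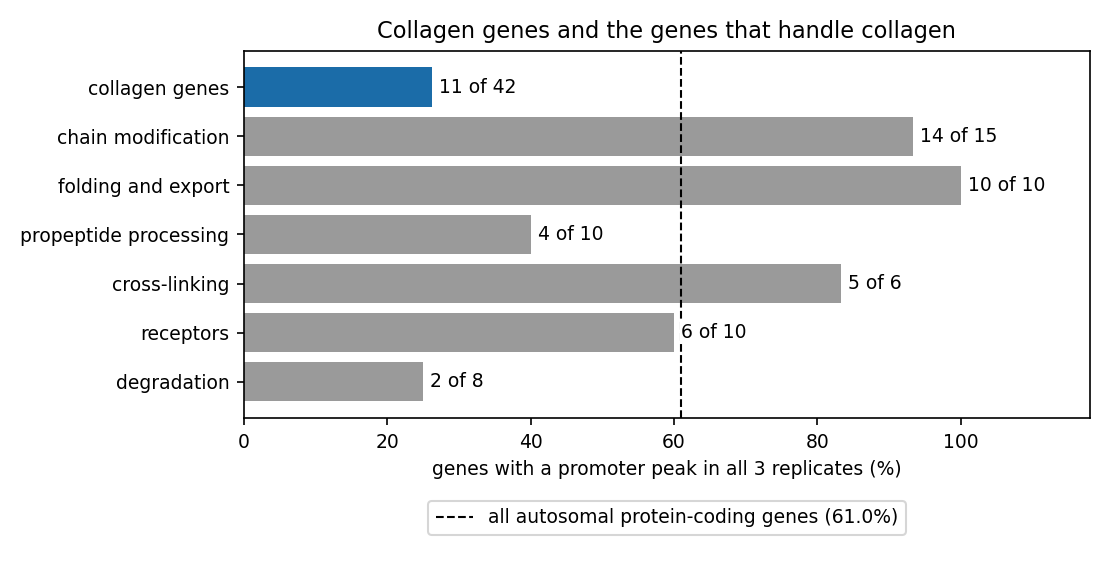
Percent of genes with a promoter peak in all 3 replicates (horizontal axis from 0) for the 42 collagen genes and 6 classes of genes that handle collagen, with the number bound beside each bar. The dashed line marks all autosomal protein-coding genes (61.0%), whatever their type of start. Chain modification, folding and export, and cross-linking exceed it. Receptors (60%) lie close to it, and collagen genes (26.2%), propeptide processing and degradation lie below it.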

How the data were processed

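PHF8 ChIP-seq peak lists of 3 replicates from SKMEL-147 cells were analyzed. Per the labels and the methods of the study, the authors aligned reads to hg19 with Bowtie2 and called narrow peaks with MACS in each replicate separately against input (the submitters' processing notes also name bcl2fastq and Picard). Versions and duplicate handling are not given in the sources used here. The deposited summit position (offset from the peak start) was used as given. The deposited fold enrichment is a linear ratio at the summit. The deposited −log10 p-value and −log10 q-value, and the deposited score (the latter times 10, cut to a whole number), belong to the same summit. All listed peaks passed the stated cutoffs (fold enrichment of 1.5, q of 0.05), and the replicates held 21506 (A), 20882 (B1) and 20120 (B2) peaks. Read totals were not used here, so library depth is unknown.

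TSSs were the 5′ ends of transcripts in GENCODE release 44 lifted to GRCh37, and the canonical TSS was that of the transcript tagged Ensembl canonical (the gene's 5′ end where none was tagged, which applied to no collagen gene). Summit fragments were recovered as the whole number that gives both the deposited fold enrichment and p-value under a Poisson law, within 0.001 of the −log10 p-value, for 100% of peaks. Percentiles are mid-ranks among the 11730 bound autosomal protein-coding genes. The X-linked COL4A5 and COL4A6 were left out by the rule. Every collagen gene was named, and the genes at both ends of each related list. The members, classes and lists were chosen with earlier results of these data known. With 1 group, no test was run. Alternatives covered the window, the choice of TSSs, peak strength, the number of replicates and the CpG limits. Overlap and recovery were tested on simulated data. Python 3.11.15, numpy 2.4.6, scipy 1.17.1 and pysam 0.24.0 were used. Some sequences are not reported here.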

Additional observations from a re-analysis of the deposited data

How the results depend on the processing

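The set of 11 bound collagen genes stayed identical with TSS windows of 500 bp or 2 kb, the summit inside the window, peaks limited to a q-value below 0.001, peaks above a fold enrichment of 4, TSSs of protein-coding transcripts only and 1 TSS per gene. It also stayed identical with the canonical TSS only, an alternative chosen after seeing the data. COL1A1 joined when 2 replicates sufficed. Leaving out each replicate gave 11 to 12 genes, with COL1A1 added without B2. Peaks above a fold enrichment of 10 kept 2 genes (COL4A1 and COL4A2), and their median percentile among bound genes was then 55.1, since a stricter limit keeps only stronger peaks. The median percentile otherwise ran from 8.65 (without B2) to 11.8 (without A) when replicates were left out (the cause was not tested), and it was 9.08 by −log10 q-value and 8.74 by recovered fragments, also chosen after seeing the data.

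The share of all autosomal protein-coding genes bound was 54.8% with 1 TSS per gene, 59.4% with protein-coding transcripts, 58.2% with the canonical TSS, 62.1% in at least 2 replicates and 50.8% above a fold enrichment of 10, each by construction of fewer or more windows or peaks. It ran from 61.1% to 61.6% when replicates were left out. The number of bound genes with an own TSS nearest was 10 under each alternative run for it. The number with an island-like start was 8, and 7 with stricter limits or with 500 bp flanks.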
